A study of Rattus norvegicus with 49 samples.

Results

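The 43 genes described here encode PPAR alpha, a nuclear receptor, and proteins of peroxisomal, mitochondrial and microsomal fatty acid oxidation, with several secreted or regulatory proteins whose genes the receptor is known to control. They were chosen by name, each through the probe set that was annotated to exactly 1 of these symbols and had the highest mean over all arrays. The array measured 42 of the 43 among 14217 genes, and Acaa1a, a peroxisomal thiolase, had no probe set with exactly 1 symbol. The levels came from 49 Affymetrix Rat Genome 230 2.0 arrays, 25 from liver and 24 from kidney, of male Harlan Sprague Dawley rats aged 6 to 8 weeks at assignment and fed NTP-2000 diet. Rats received propylene glycol phenyl ether (PPH), a glycol ether solvent, by gavage in corn oil at 5 mL/kg on 5 consecutive days and were killed a day after the last dose. Doses were 1, 10, 100, 500 and 1000 mg/kg, with 4 arrays, each a biological replicate by its label, per organ and dose apart from 3 for kidney at 500 mg/kg, and the control rats (0 mg/kg, 5 arrays per organ) received corn oil alone. All groups, controls included, thus shared the oil vehicle, which is itself a fat load. The study's treatment text names another compound, MCHM, and the compound of the title and sample labels is followed here.

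Fatty acids enter cells through carriers such as CD36, are bound by proteins such as FABP1 and are activated to acyl-CoA. The carnitine shuttle moves long-chain acyl-CoA into mitochondria, where dehydrogenases, hydratases and thiolases shorten it step by step, and auxiliary enzymes such as DECR1 and ECI1 rearrange double bonds. Peroxisomes take the very long chains, and CYP4A enzymes of the endoplasmic reticulum oxidise the far end of the chain. In rat liver, and less in rat kidney, peroxisome proliferators bind PPAR alpha, which pairs with RXR on direct repeats of the letters AGGTCA separated by 1 base and raises Cyp4a, Ehhadh, Cpt1a, Pdk4, Angptl4 and Fgf21; fasting does so too.

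The values were RMA log2 values, in which a difference of 1 is a doubling; a gene was called where limma's Benjamini-Hochberg adjusted p over all 14217 genes was under 0.05. Every hepatocyte marker lay near the top of the liver values, albumin at 14.7, and the proximal tubule markers were high in kidney, Slc34a1 at 13.6. Array medians were 6.47 to 6.62 for liver and 6.62 to 6.77 for kidney arrays, and the lowest correlation between 2 arrays was 0.987 in liver and 0.988 in kidney. For 7 of the 24 kidney arrays the mean of 7 adipocyte markers exceeded that of the controls by over 0.5 log2 units: control replicate 4, 3 arrays at 10 mg/kg, and replicate 1 of the 1, 100 and 500 mg/kg groups. The 1000 mg/kg kidneys held none of them, at -0.52 to -0.22. The main kidney counts among the 42 genes are therefore also given without those arrays. In kidney at 1000 mg/kg the 7 markers changed by -1.28 (Fabp4), -1.18 (Cfd), -0.50 (Adipoq), -0.15 (Plin4), -0.04 (Plin1), 0.04 (Lep) and 0.82 (Cidec). None of them was called. Plin1 and Lep were low on every kidney array, at 3.84 to 4.27 and 3.56 to 4.13. In whole organs, fewer cells of a type and less RNA per cell cannot be told apart.

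The promoters of 36 of the 43 genes were found in RefSeq's table (GRCr8; 250 bases before to 50 after each gene's start); Cpt1b, Acadl, Acaa2, Decr1, Ech1, Cyp4a1 and Vnn1 were not matched. They are shown for the peroxisomal genes that carry the results in kidney and in liver, Ehhadh and Decr2, for the CYP4A gene called in kidney, Cyp4a3, and for Fabp1, a known PPAR alpha target. Capitals mark AGGTCA or its reverse complement TGACCT, and the spaced repeat where 1 was found; each run is the strand of the gene.
Ehhadh: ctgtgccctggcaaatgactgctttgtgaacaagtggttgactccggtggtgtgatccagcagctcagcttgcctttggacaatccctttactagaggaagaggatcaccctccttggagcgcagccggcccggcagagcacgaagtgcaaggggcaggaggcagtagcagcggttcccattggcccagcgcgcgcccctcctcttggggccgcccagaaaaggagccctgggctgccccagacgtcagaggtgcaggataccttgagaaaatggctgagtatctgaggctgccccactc
Cyp4a3: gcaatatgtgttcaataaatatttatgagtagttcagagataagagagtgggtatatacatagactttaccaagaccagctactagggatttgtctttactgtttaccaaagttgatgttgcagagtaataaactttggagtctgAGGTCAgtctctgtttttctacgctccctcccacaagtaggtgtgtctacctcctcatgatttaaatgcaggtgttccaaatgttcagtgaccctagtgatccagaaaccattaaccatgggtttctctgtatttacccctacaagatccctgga
Decr2: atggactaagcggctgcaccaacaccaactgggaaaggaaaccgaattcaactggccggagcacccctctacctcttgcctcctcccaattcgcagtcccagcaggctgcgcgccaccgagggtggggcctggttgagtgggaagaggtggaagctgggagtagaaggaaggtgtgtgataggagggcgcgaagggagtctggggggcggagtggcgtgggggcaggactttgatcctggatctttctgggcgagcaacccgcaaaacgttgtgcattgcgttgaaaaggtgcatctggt
Fabp1: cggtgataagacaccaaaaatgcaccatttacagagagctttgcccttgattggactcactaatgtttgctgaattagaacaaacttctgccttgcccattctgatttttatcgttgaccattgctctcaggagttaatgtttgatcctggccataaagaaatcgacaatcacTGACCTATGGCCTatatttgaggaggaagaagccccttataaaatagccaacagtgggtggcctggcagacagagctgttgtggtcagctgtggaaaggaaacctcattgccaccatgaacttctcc
The Ehhadh window is chr11:92746159-92746458 on the plus strand, that of Cyp4a3 chr5:134352187-134352486 on the minus strand, that of Decr2 chr10:15617387-15617686 on the minus strand and that of Fabp1 chr4:104749090-104749389 on the plus strand. Both strands were searched for AGGTCANAGGTCA, for the looser AGGNCANAGGNCA, which includes the first, and for AGGTCA alone, which the strict repeat contains. The strict repeat was in 0 of the 36 and in 0.0538% of 33469 promoters of the same length in the table. The looser repeat was in 1 of the 36, Fabp1, starting at base -77 on the minus strand and reading AGGCCATAGGTCA, against 0.415% of the table. The single AGGTCA was in 9 of the 36 (25%), against 16.2% of the table. The 9 were Acadvl, Cyp4a3 (at -105), Eci1, Eci2, Fabp1, Hadhb, Hsd17b4, Slc27a2 (at -76) and Ucp3. Of these, Cyp4a3 and Slc27a2 were called at 1000 mg/kg in kidney, Eci2 in the kidney trend, and the rest in neither organ. The called genes Ehhadh, Acadm, Hadha, Decr2, Pex19 and Cd36 had no AGGTCA in their windows. No match says only that these letters are not in these 300 bases.

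In liver, 3 of the 42 genes rose at 1000 mg/kg and none fell, where 1.05% of all genes were called and 0.739% were called higher. The 3 were Decr2, a peroxisomal 2,4-dienoyl-CoA reductase, Pex19, the chaperone that inserts peroxisomal membrane proteins, and Cd36, the fatty acid transporter. Of the PPAR alpha targets named above, Cpt1a, Pdk4, Angptl4, Fgf21, Ehhadh and the Cyp4a genes were not called, and Ehhadh lay near the threshold. At 500 mg/kg only Pex19 was called among the 42 (0.0492% of all genes), and at 1, 10 and 100 mg/kg none was (0% of all genes at 1 and 100 mg/kg and 0.00703% at 10 mg/kg). With 1 slope per step of dose rank, 2 were called, Decr2 and Pex19 (0.661% of all genes in either direction and 0.521% rising). Decr2 alone was called at 1000 mg/kg under quantile normalization, median centring or a fit of the 2 groups alone, and likewise without control replicate 1 or 4 or without 1000 mg/kg replicate 3 or 4. Pex19 at 500 mg/kg was not called under those 3 settings, nor without control replicate 1, 2 or 5 or without 500 mg/kg replicate 1 or 3. The mean of 5 hepatocyte markers lay at -0.15 to -0.07 at 1000 mg/kg relative to the control mean, against -0.04 to 0.05 in controls, so that the groups did not overlap, though none of the 5 was called. By gene the changes were -0.28 (Apoa1), -0.10 (Fgb), -0.08 (Ahsg), -0.07 (Ttr) and -0.03 (Alb). Of the 6 brown adipocyte markers only Cidea, a lipid droplet protein, was called in liver (1.21, limma adjusted p = 0.0386). The others changed by -0.47 (Cox8b), -0.21 (Ucp1), -0.12 (Cox7a1), -0.05 (Ppargc1a) and 0.06 (Elovl3). The part of these cell types in the liver results was not tested.

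**Figure D1:**
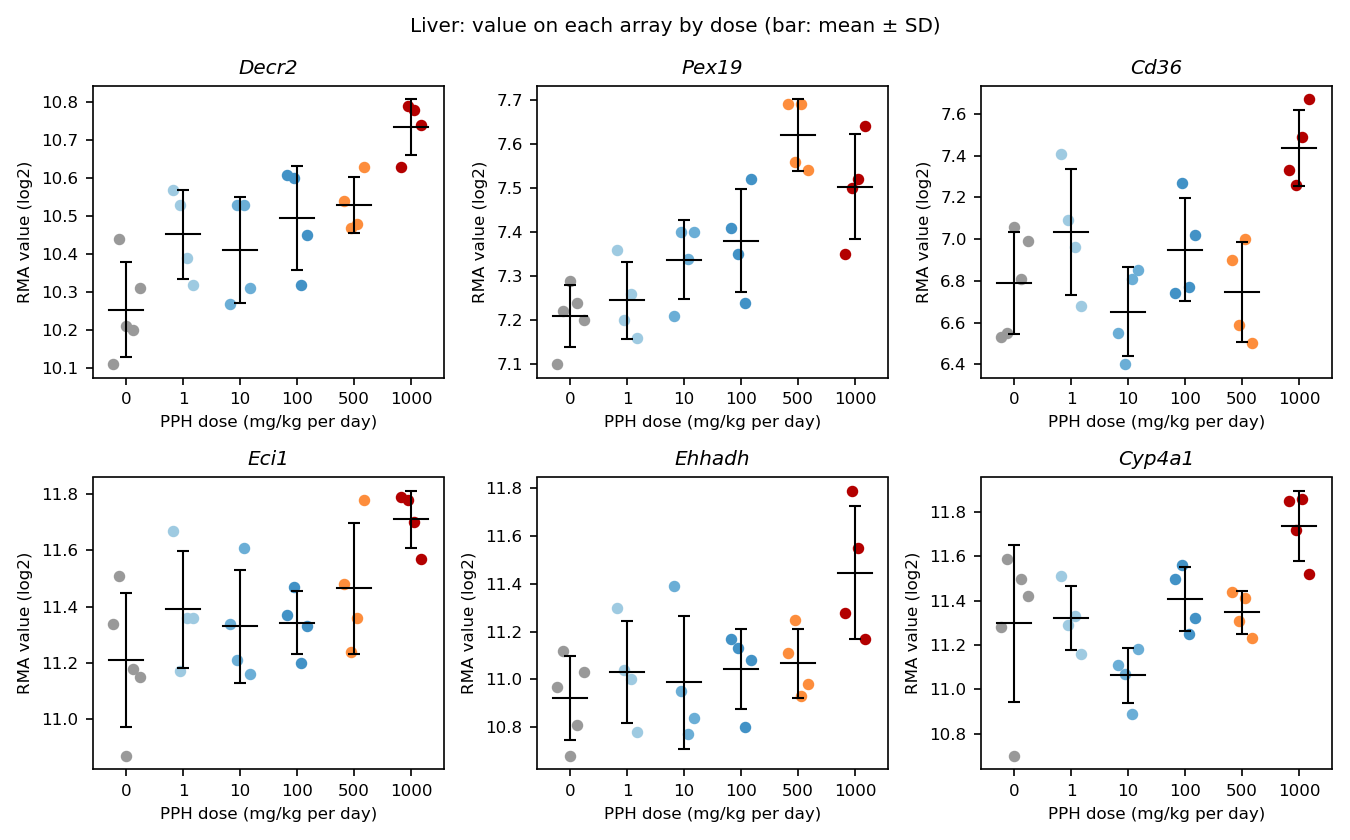
Liver RMA values (log2, vertical axis) of 6 genes on each array, by daily PPH dose (horizontal axis, mg/kg); the bars give mean and SD of the 4 or 5 arrays. For Decr2 all 1000 mg/kg arrays lie at or above 10.63 and all control arrays at or below 10.44, and for Pex19 the 500 mg/kg mean, 7.62, lies above the 1000 mg/kg mean, 7.50.

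Decr2 had 10.63, 10.79, 10.78 and 10.74 log2 units in the livers at 1000 mg/kg, against 10.11, 10.44, 10.21, 10.20 and 10.31 in control livers. The groups did not overlap, and the mean was higher by 0.48 (SE 0.08, 1.40-fold, limma adjusted p = 0.0036). Over the doses its means were 10.25 ± 0.13, 10.45 ± 0.11, 10.41 ± 0.14, 10.50 ± 0.14, 10.53 ± 0.07 and 10.74 ± 0.07 at 0, 1, 10, 100, 500 and 1000 mg/kg (SD, n = 4, or 5 at 0 mg/kg). It thus sat above the control mean at every dose, and the trend was 0.08 per step (SE 0.01, limma adjusted p = 0.00687). The rise at 1000 mg/kg kept its call in each of the 25 fits that left out 1 liver array.

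Pex19 was the only 1 of the 3 with a higher mean at 500 than at 1000 mg/kg. It had 7.35, 7.50, 7.52 and 7.64 at 1000 mg/kg, against 7.10, 7.22, 7.29, 7.24 and 7.20 in controls, with no overlap. At 500 mg/kg the arrays stood at 7.69, 7.56, 7.69 and 7.54, all above the controls and on average above the 1000 mg/kg group. Against controls the change was 0.29 at 1000 mg/kg (SE 0.07, 1.22-fold, limma adjusted p = 0.0483) and 0.41 at 500 mg/kg (SE 0.07, limma adjusted p = 0.0262). The 2 top doses differed by -0.12 (SE 0.07), which was not called. At 1000 mg/kg Pex19 was called in 5 of the 25 fits that left out 1 array.

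Cd36 was called at the top dose alone. It had 7.33, 7.26, 7.49 and 7.67 at 1000 mg/kg, against 6.53, 6.55, 7.06, 6.81 and 6.99 in controls, so that the groups were separate (0.65, SE 0.15, 1.57-fold, limma adjusted p = 0.0375). At 500 mg/kg it lay between 6.50 and 7.00, and at the lower doses between 6.40 and 7.41. Macrophages also express Cd36. The mean of 5 macrophage markers lay at -0.48 to -0.13 at 1000 mg/kg relative to the control mean, against -0.16 to 0.29 in controls, and its part in the result was not tested.

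Beside these, Eci1 and Ehhadh lay near the threshold. Eci1, the mitochondrial enoyl-CoA isomerase, had 11.79, 11.78, 11.70 and 11.57 at 1000 mg/kg, against 11.34, 11.51, 10.87, 11.18 and 11.15 in controls (0.50, SE 0.12, limma adjusted p = 0.0501). Ehhadh, the peroxisomal bifunctional hydratase and dehydrogenase, had 11.28, 11.79, 11.55 and 11.17 at 1000 mg/kg, against 10.97, 11.12, 10.68, 10.81 and 11.03 in controls (0.52, SE 0.14, limma adjusted p = 0.0692). For both, every 1000 mg/kg array lay above every control. Among brighter genes only, both were called (limma adjusted p = 0.021 for Eci1 and 0.0294 for Ehhadh), and Eci1 was also called with a robust variance trend and with array weights. In all, 5 of the 42 genes had such a separation at 1000 mg/kg, where 3.45% of all genes did, and 3 did at 500 mg/kg, where 3.55% did. A second, dim probe set of Eci1 moved the other way in liver (-0.16, SE 0.16), so its value rests on 1 probe set.

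Cyp4a1, a liver fatty acid hydroxylase, had 11.85, 11.72, 11.86 and 11.52 at 1000 mg/kg, against 11.28, 11.59, 10.70, 11.50 and 11.42 in controls; the groups overlapped by 1 array (0.44, SE 0.13, limma adjusted p = 0.117). Cyp4a3 was at 11.58, 11.40, 11.58 and 11.33, against 11.41, 11.86, 10.83, 11.42 and 11.36 in controls (0.09, SE 0.13). CYP4A genes are close copies of each other, and whether a probe set reads its neighbours was not tested. All 3 CYP4A genes lay above 0, with a median of 0.43, and none was called. That median was the value of Cyp4a8, which was low in liver (mean 5.02), and its second probe set gave 0.24 (SE 0.19).

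Ppara and the secreted targets Fgf21 and Angptl4 were not called in liver. Ppara itself had 5.84, 5.45, 5.75 and 5.31 at 1000 mg/kg, against 5.67, 5.80, 5.98, 5.36 and 5.92 in controls (-0.16, SE 0.19, limma adjusted p = 0.796), and the groups overlapped. Fgf21, the hormone that liver releases in fasting, had 8.77, 10.59, 8.30 and 9.63, against 8.11, 10.36, 7.89, 9.54 and 10.55 in controls (0.03, SE 0.78). Its spread within dose groups, 1.27 log2 units, was at the 100th percentile of all genes in liver. Angptl4, a secreted inhibitor of lipoprotein lipase, had 9.10, 10.04, 10.24 and 9.96, against 10.27, 10.80, 10.37, 11.27 and 9.61 in controls (-0.63, SE 0.29, limma adjusted p = 0.374).

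Cpt1a, the gate of the carnitine shuttle, had 10.80, 10.84, 10.66 and 10.00 at 1000 mg/kg, against 10.99, 11.28, 10.77, 11.00 and 10.84 in controls (-0.40, SE 0.21, limma adjusted p = 0.451). Pdk4, a kinase that holds back glucose oxidation, had 9.04, 9.51, 9.43 and 9.06, against 8.95, 9.28, 9.76, 10.25 and 9.41 (-0.27, SE 0.23, limma adjusted p = 0.698). Both overlapped with controls, and the 95% intervals of the change were -0.85 to 0.04 for Cpt1a and -0.75 to 0.21 for Pdk4. Fabp1, whose promoter alone held the looser repeat, had 13.74, 13.82, 13.82 and 13.86, against 13.85, 13.84, 13.93, 13.99 and 13.87 (-0.09, SE 0.06).

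By role, the called liver genes were peroxisomal or served uptake. All 8 measured peroxisomal genes were above 0 (7 under quantile normalization or median centring, where Eci2 was not), with a median of 0.32 and a range of 0.01 (Eci2) to 0.52 (Ehhadh), and 2 were called. Of 13 mitochondrial genes, 8 were above 0 with a median of 0.02 (6 with a median of -0.02 under median centring), and none was called. Decr1, called in kidney, changed by 0.25 here (SE 0.09, limma adjusted p = 0.2). The uptake genes had a median of 0.07 and 1 call. The carnitine shuttle had a median of 0.04 and no call, with Crat, the carnitine acetyltransferase, at 0.38 (SE 0.12, limma adjusted p = 0.159). The 42 genes together had a median of 0.05 with 29 above 0, where all 14217 genes had a median of 0.02 with 54.3% above 0. Under quantile normalization 26 were above 0 (median 0.025, all genes -0.004), and under median centring 24 (median 0.019, all genes -0.019). None of these shares was tested.

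Between the 2 highest doses no gene of the 42 was called in liver (0.00703% of all genes were). At an unadjusted p under 0.05, 5 were higher at 1000 mg/kg and none lower, where 2.68% of all genes were higher and 6.55% passed in either direction. At the same limit, 1 of the 42 passed at 1 mg/kg (9.45% of all genes), 1 at 10 mg/kg (9.22%) and 2 at 100 mg/kg (9.18%). All these comparisons of a dose with 0 mg/kg share the same 5 control arrays.

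In kidney, 6 of the 42 genes rose at 1000 mg/kg and none fell, where 1.55% of all genes were called and 0.506% were called higher. They were Ehhadh, which had missed the call in liver; Decr1, the mitochondrial 2,4-dienoyl-CoA reductase; Cyp4a3; Acadm, the medium-chain acyl-CoA dehydrogenase; Ech1, a peroxisomal and mitochondrial dienoyl-CoA isomerase; and Slc27a2, a very long chain acyl-CoA synthetase. At 1, 10, 100 and 500 mg/kg no gene was called (0% of all genes at each). The trend called 7 (1.39% of all genes in either direction and 0.359% rising), adding Eci2 and Hadha and leaving out Slc27a2. Without the 7 adipocyte-rich arrays, 2 of the 42 were called at 1000 mg/kg and 2 in the trend, Decr1 and Ehhadh both times, and the same 2 when only the 1000 and 0 mg/kg arrays were fitted. The other 4 had changes of 0.40 (Cyp4a3, limma adjusted p = 0.0695), 0.28 (Acadm, 0.0856), 0.27 (Ech1, 0.08) and 0.26 (Slc27a2, 0.0803) without the adipocyte-rich arrays. With all arrays kept and the adipocyte marker mean as a covariate, 5 were called at 1000 mg/kg, all but Slc27a2 (limma adjusted p = 0.0583), and the same 7 in the trend. The count at 1000 mg/kg was 3 without 1000 mg/kg replicate 3 (Acadm, Decr1 and Ehhadh). The trend called 4 without that array, without 1000 mg/kg replicate 4 or without control replicate 2.

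**Figure D2:**
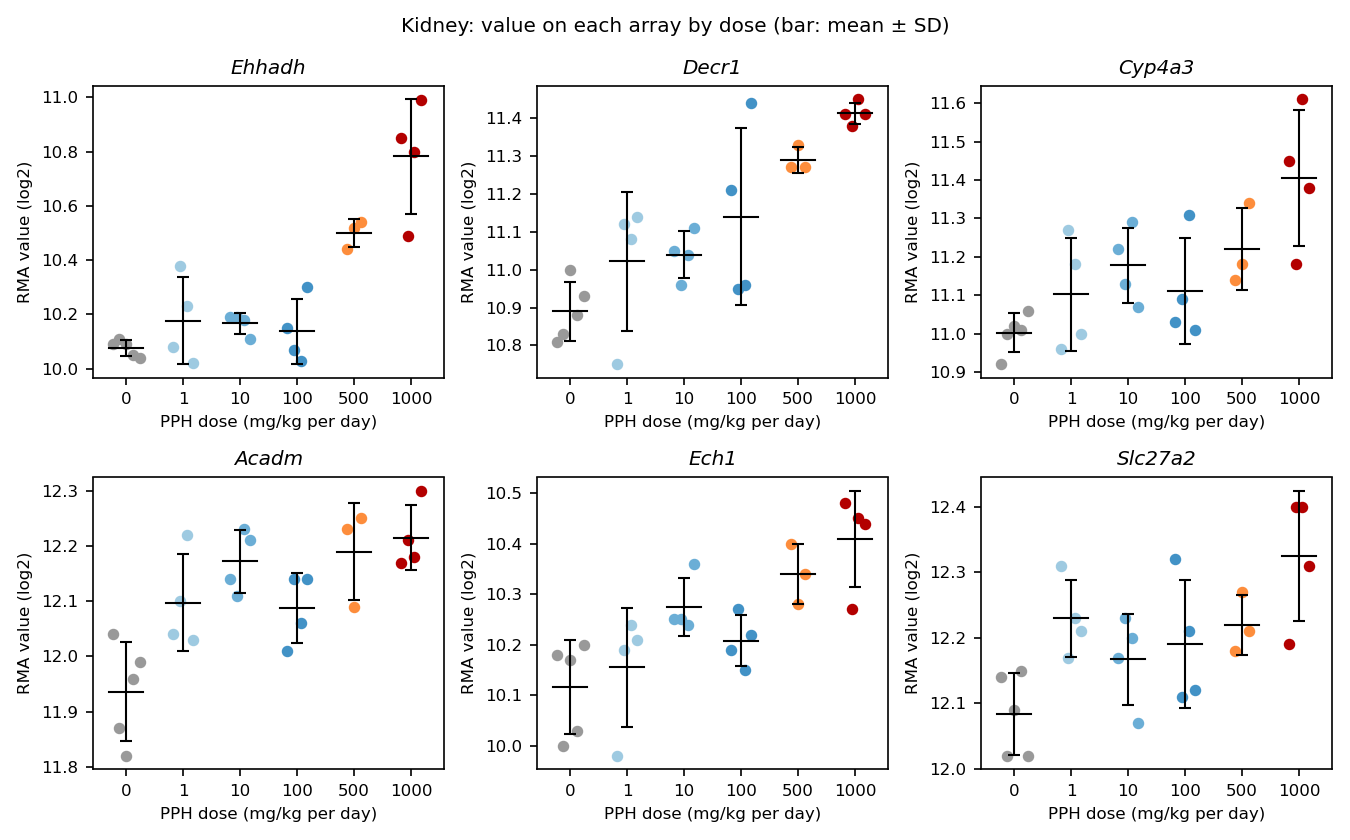
Kidney RMA values (log2, vertical axis) of the 6 called genes on each array, by daily PPH dose (horizontal axis, mg/kg); the bars give mean and SD of the 3 to 5 arrays. For Ehhadh every 500 mg/kg array (10.44 to 10.54) and every 1000 mg/kg array (10.49 to 10.99) lies above every control array (10.04 to 10.11).

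Ehhadh had 10.85, 10.49, 10.80 and 10.99 log2 units in kidney at 1000 mg/kg, against 10.09, 10.11, 10.09, 10.05 and 10.04 in controls. The groups were far apart relative to their spread (0.71, SE 0.08, 1.63-fold, limma adjusted p = 4.61e-05). Over the doses its means were 10.08 ± 0.03, 10.18 ± 0.16, 10.17 ± 0.04, 10.13 ± 0.12, 10.50 ± 0.06 and 10.78 ± 0.21 at 0, 1, 10, 100, 500 and 1000 mg/kg (SD, n = 5, 4, 4, 4, 3 and 4). The 3 arrays at 500 mg/kg, at 10.44, 10.52 and 10.54, were all above the 0 mg/kg arrays, though not called (0.42, SE 0.09, limma adjusted p = 0.195).

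Decr1 rose as well. It had 11.41, 11.38, 11.45 and 11.41 at 1000 mg/kg, against 10.81, 10.83, 11.00, 10.88 and 10.93 in controls (0.52, SE 0.09, 1.44-fold, limma adjusted p = 0.00171). The 3 arrays at 500 mg/kg were at 11.27, 11.33 and 11.27, between the other 2 groups and overlapping neither. Means ran 10.89 ± 0.08, 11.02 ± 0.18, 11.04 ± 0.06, 11.14 ± 0.23, 11.29 ± 0.03 and 11.41 ± 0.03 at 0, 1, 10, 100, 500 and 1000 mg/kg (SD, n as for Ehhadh), and the trend was 0.10 per step (limma adjusted p = 0.00014). Both genes kept their call at 1000 mg/kg in each of the 24 fits without 1 kidney array.

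Cyp4a3 had 11.45, 11.18, 11.61 and 11.38 at 1000 mg/kg, against 10.92, 11.00, 11.02, 11.01 and 11.06 in controls (0.40, SE 0.08, 1.32-fold, limma adjusted p = 0.0131). Cyp4a1 had 10.31, 10.29, 10.37 and 10.53 at 1000 mg/kg, against 10.14, 10.23, 10.61, 10.16 and 10.21 in controls (0.10, SE 0.15), and overlapped with controls through 1 control array. The neighbour Cyp4a8 had a change of 0.36 (SE 0.12, limma adjusted p = 0.17), and its second, also bright probe set gave 0.49 (SE 0.12).

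Acadm had 12.17, 12.21, 12.18 and 12.30 at 1000 mg/kg, against 12.04, 11.87, 11.82, 11.96 and 11.99 in controls (0.28, SE 0.06, 1.21-fold, limma adjusted p = 0.0152). Ech1 had 10.48, 10.27, 10.45 and 10.44, against 10.18, 10.00, 10.17, 10.03 and 10.20 in controls (0.29, SE 0.06, 1.23-fold, limma adjusted p = 0.0175). Slc27a2 had 12.19, 12.40, 12.40 and 12.31, against 12.14, 12.02, 12.09, 12.15 and 12.02 in controls (0.24, SE 0.06, 1.18-fold, limma adjusted p = 0.0421). All 3 separated from controls, the last by a narrow margin, and Slc27a2 was called in 10 of the 24 fits without 1 array. Acadm was nearly as far above controls at 10 mg/kg, at 12.14, 12.11, 12.23 and 12.21, with a change of 0.24 that was not called (limma adjusted p = 0.491).

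Of the genes added by the trend, Eci2, a peroxisomal isomerase, had 10.46, 10.25, 10.51 and 10.44 at 1000 mg/kg, against 10.14, 10.17, 10.24, 10.22 and 10.02 in controls, and a slope of 0.05 per step (limma adjusted p = 0.0292). Hadha, the alpha subunit of the mitochondrial trifunctional protein, had 9.91, 9.98, 9.98 and 10.11, against 9.75, 9.63, 9.93, 9.81 and 9.74 in controls, and a slope of 0.05 per step (limma adjusted p = 0.0309). Hadha overlapped with controls by 1 array, and its other probe sets, both dim, gave slopes of 0.02 and -0.01.

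By role, the called kidney genes were spread over uptake, mitochondria, peroxisomes and the endoplasmic reticulum. All 13 mitochondrial genes were above 0 at 1000 mg/kg (11 under quantile normalization, where Etfa and Etfb were not, and 12 with the mean of all probe sets, where Acaa2 was not), with a median of 0.13 and a range of 0.01 (Etfb) to 0.52 (Decr1), and 2 were called. The dim second probe set of Acaa2, the mitochondrial thiolase, gave -0.32 (SE 0.12), and its brighter one 0.13 (SE 0.16). Of 8 peroxisomal genes, 6 were above 0 with a median of 0.19, and 2 were called. Hadhb, the beta subunit that partners Hadha, had 11.06, 11.05, 11.18 and 11.27 at 1000 mg/kg, against 10.97, 11.00, 11.03, 10.96 and 10.95 in controls (0.16, SE 0.07, limma adjusted p = 0.322), with no overlap. The 42 genes together had a median of 0.12 with 31 above 0, where all genes had a median of -0.02 with 44.5% above 0. Their arrays lay all above the controls for 11 of the 42, where 1.62% of all genes did, and for 14 of the 42 without the adipocyte-rich arrays (2.06% of all genes).

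At 500 mg/kg, with 3 arrays, 34 of the 42 were above 0 with a median of 0.15, where 48.3% of all genes were, and no gene was called. At an unadjusted p under 0.05, 12 were higher and 1 lower, where 2.22% of all genes were higher and 5.08% passed in either direction. For 12 of the 42, Hadhb, Hadha, Acadm and Cyp4a8 among them, every array lay above every control, where 1.75% of all genes did. Without the adipocyte-rich arrays, which leaves 2 arrays at 500 mg/kg and 4 controls, that count was 15 of the 42 (6.57% of all genes), and at an unadjusted p under 0.05, 13 were higher and 1 lower (2.83% of all genes higher). Between 1000 and 500 mg/kg no gene was called (0% of all genes), and at an unadjusted p under 0.05 only Ehhadh passed, higher by 0.28 (SE 0.10), 1 of the 42 against 5.82% of all genes in either direction; without the adipocyte-rich arrays none of the 42 passed (5.39% of all genes). Both doses share the same 5 control arrays.

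At the 3 lowest kidney doses no gene was called. At an unadjusted p under 0.05, 3 of the 42 passed at 1 mg/kg (2.98% of all genes), 3 at 100 mg/kg (6.83%) and 12 at 10 mg/kg, where 7.35% of all genes passed in either direction and 3.12% higher; 10 of the 12 were higher. For 5 of the 42 every 10 mg/kg array lay above every control, where 0.675% of all genes did. Of the 4 arrays at 10 mg/kg, 3 were among the adipocyte-rich ones, so that group has 1 array without them, replicate 2. On that array the mean of 5 hepatocyte markers was 1.16 above the control mean, the highest of the kidney arrays. Its part in the 10 mg/kg values was not tested. Without the adipocyte-rich arrays, 4 of the 42 passed at an unadjusted p under 0.05 at 1 mg/kg (3.65% of all genes) and 6 at 100 mg/kg (6.7%). At 10 mg/kg, with that 1 array, the median change of the 42 was 0.03, against 0.11 with all 4.

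Ppara, Fgf21 and Angptl4 again were not called in kidney. Ppara had 5.44, 5.17, 4.73 and 5.29 at 1000 mg/kg, against 4.97, 5.70, 5.67, 5.53 and 5.77 in controls (-0.37, SE 0.25, limma adjusted p = 0.579). Angptl4 had 5.21, 5.68, 4.99 and 4.88, against 4.90, 5.42, 4.76, 5.69 and 4.35 in controls (0.16, SE 0.25). Fgf21 had 4.37, 4.81, 3.47 and 3.94, against 4.62, 3.85, 4.26, 4.18 and 4.43 in controls (-0.12, SE 0.26). All 3 overlapped with controls.

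Cpt1a and Pex19 also overlapped with controls in kidney. Cpt1a had 10.04, 10.08, 10.16 and 9.86 at 1000 mg/kg, against 10.00, 10.02, 9.98, 10.06 and 9.91 in controls (0.04, SE 0.08). Pex19, called in liver, had 7.07, 7.12, 7.36 and 7.10, against 6.99, 7.06, 7.00, 7.25 and 7.10 in controls (0.08, SE 0.08). Vnn1, a pantetheinase known as a PPAR alpha target, had 10.29, 10.16, 10.34 and 10.10 at 1000 mg/kg, against 9.68, 9.76, 10.05, 9.27 and 9.35 in controls (0.60, SE 0.17, limma adjusted p = 0.0716). The groups did not overlap for Vnn1. Pex11a, a peroxisome division factor, likewise had 8.78, 8.80, 8.93 and 8.72, against 8.42, 8.23, 8.52, 8.58 and 8.51 in controls (0.35, SE 0.11, limma adjusted p = 0.131).

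Some of the widest spreads in kidney moved with the adipocyte markers. Pdk4 was highest at 10 mg/kg replicate 4 (8.71) and 500 mg/kg replicate 1 (7.76), the arrays with the highest adipocyte marker means, 1.77 and 1.48 above the control mean. The mean of 6 brown adipocyte markers there was 2.80 and 2.17 above its control mean. Over the kidney arrays Ucp1, Cidea and Cox8b spanned 4.30 to 11.92, 5.37 to 10.56 and 3.97 to 9.97. Elovl3, Cox7a1 and Ppargc1a spanned only 2.16 to 2.62, 4.42 to 5.13 and 7.56 to 8.95. At 1000 mg/kg Pdk4 had 5.99, 6.29, 6.44 and 5.94, against 5.98, 6.48, 6.20, 6.49 and 5.79 in controls. Cd36 reached 7.92 and Cpt1b, the muscle and brown fat form of CPT1, 8.18 on the first of those arrays. With 1 mean per dose in the fit, the slope on the adipocyte marker mean was called for 2 of the 42, Pdk4 (0.74, SE 0.14, limma adjusted p = 0.0165) and Cd36 (0.52, SE 0.09, limma adjusted p = 0.0067), where 0.218% of all genes were. A second, dimmer probe set of Pdk4 changed by -0.16 (SE 0.19) at 500 mg/kg, where the main one changed by 0.58 (SE 0.43). The slope of that second probe set was not fitted. The slope for Ehhadh was -0.03 (SE 0.04) and for Decr1 -0.02 (SE 0.05). The 8 proximal tubule markers had means of -0.21 to 0.02 at 1000 mg/kg, against -0.09 to 0.19 in controls, and none was called. The mean of 5 macrophage markers lay at -0.39 to -0.20 at 1000 mg/kg, against -0.11 to 0.11 in controls, with no overlap, and 1 of the 5, Adgre1, was called (-0.80, limma adjusted p = 0.0218). The mean of 4 fibroblast markers lay at -0.72 to -0.21, against -0.26 to 0.21 in controls, and none was called. The mean of 5 hepatocyte markers lay at -0.39 to 0.39 at 1000 mg/kg, against -0.12 to 0.09 in controls, and was highest on replicate 2 at 10 mg/kg (1.16) and replicate 2 at 100 mg/kg (0.78). The part of these cell types in the kidney results was not tested.

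**Figure D3:**
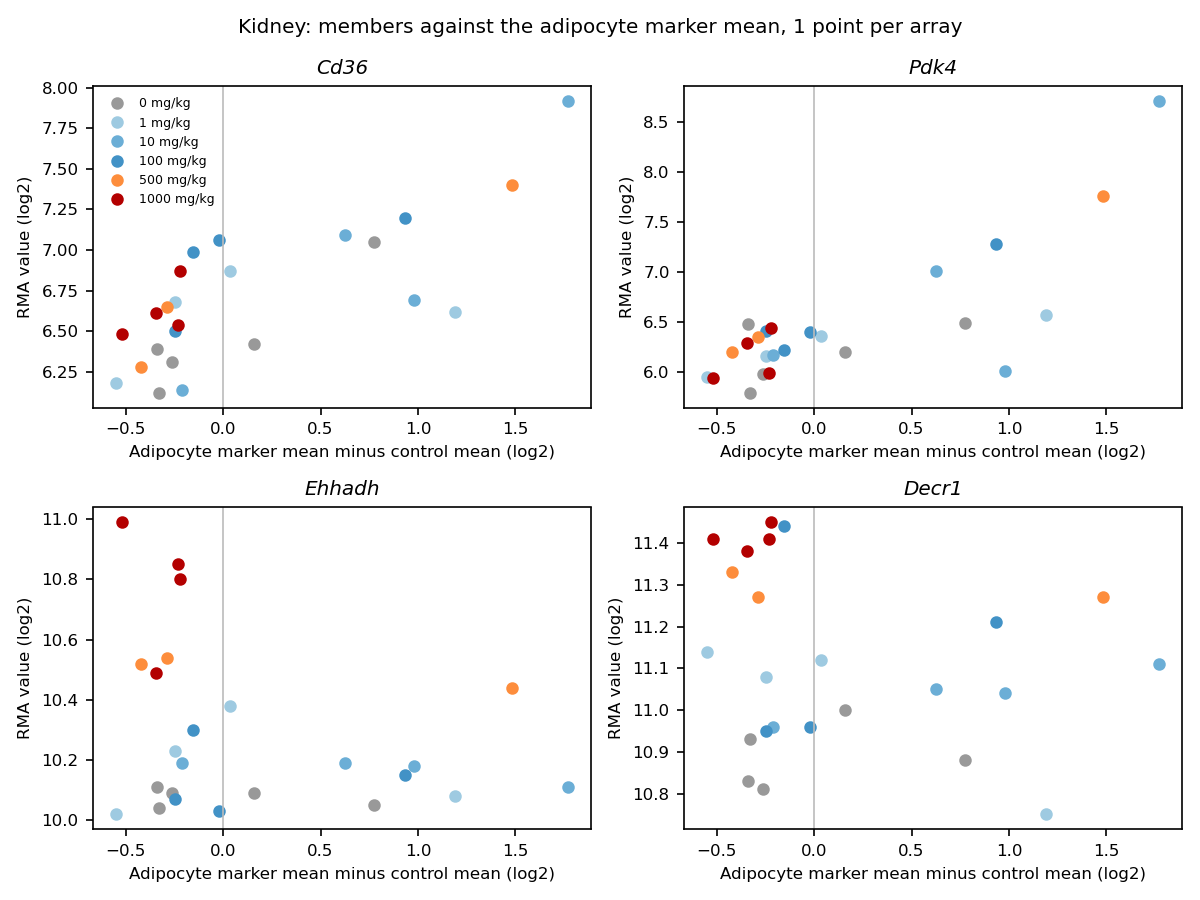
Kidney RMA values (log2, vertical axis) of 4 genes against the mean of 7 adipocyte markers on the same array, relative to the control mean (log2, horizontal axis); 1 point per array, coloured by dose. Cd36 and Pdk4 are highest on the right, while Ehhadh and Decr1 are high at 1000 mg/kg, where the marker mean is -0.52 to -0.22.

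A test of whether liver and kidney responded differently to 1000 mg/kg, (liver minus its control) minus (kidney minus its control), called 2 of the 42, where it called 0.626% of all genes. Decr2 was higher by 0.48 in liver and lower by 0.17 in kidney, where it had 10.72, 10.70, 10.49 and 10.80 at 1000 mg/kg, against 10.68, 10.72, 11.08, 11.07 and 10.71 in controls; the organ difference was 0.66 (SE 0.14, limma adjusted p = 0.0155). Acadm changed by -0.10 in liver, with 12.26, 12.29, 12.26 and 12.23 against 12.44, 12.36, 12.28, 12.35 and 12.39 in controls, and by 0.28 in kidney; the difference was -0.38 (SE 0.08, limma adjusted p = 0.00784). Under median centring the difference was called for Acadm alone, and without the adipocyte-rich kidney arrays it was called for both (0.60 for Decr2 and -0.38 for Acadm). For Ehhadh, above 0 in both organs, and for the remaining genes the difference was not called.

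**Figure D4:**
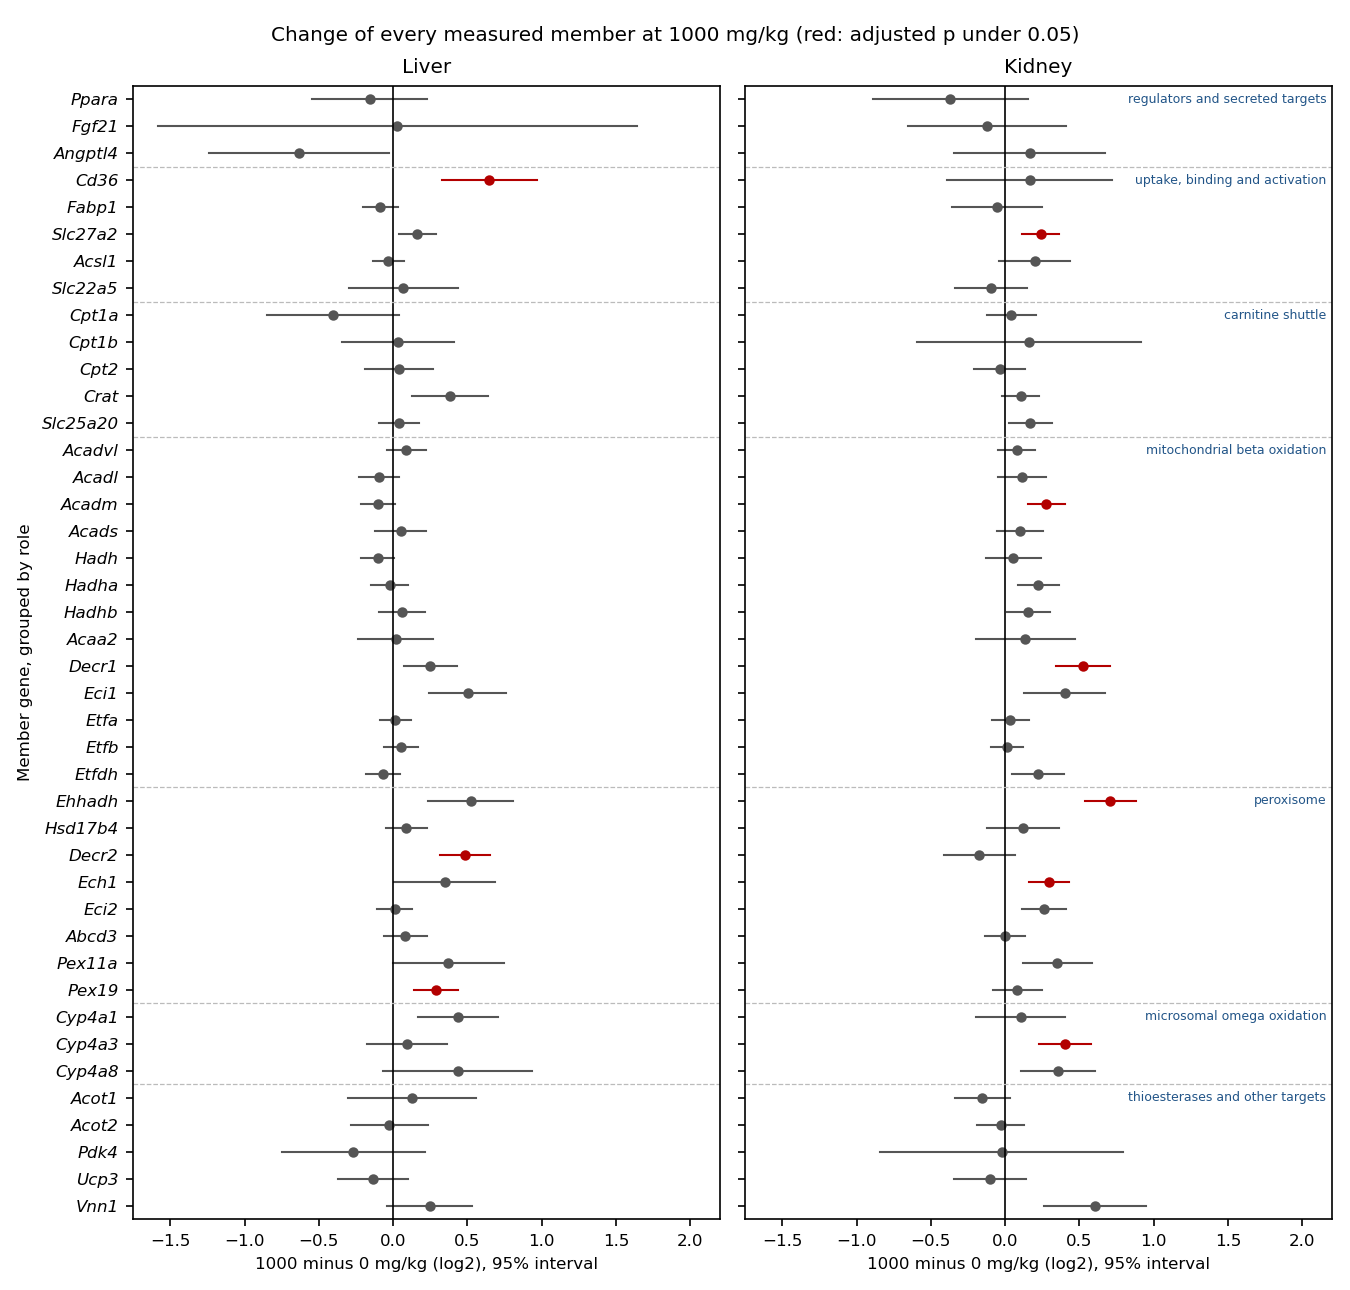
Change of each of the 42 genes at 1000 mg/kg against 0 mg/kg (log2, horizontal axis, with 95% interval) in liver (left) and kidney (right), grouped by role (vertical axis, role named at its first gene); red marks adjusted p under 0.05. In liver the called genes are Cd36, Decr2 and Pex19, and in kidney Slc27a2, Acadm, Decr1, Ehhadh, Ech1 and Cyp4a3.

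Among 48 further genes of the pathway on the array, 1 was called in liver at 1000 mg/kg, where 1.05% of all genes were, Slc27a5, a bile acid and very long chain acyl-CoA synthetase (0.42, SE 0.09, limma adjusted p = 0.02). In kidney 2 were, where 1.55% of all genes were, Acsl3, a long-chain acyl-CoA synthetase (0.39, SE 0.07, limma adjusted p = 0.0064), and Acad11, an acyl-CoA dehydrogenase of long and very long chains (0.27, SE 0.07, limma adjusted p = 0.046), and both were called in the kidney trend (1.39% of all genes).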

How the data were processed

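Gene expression was measured in liver and kidney on 49 arrays. The deposited log2 values were made by the authors with RMA, per the submitters' processing notes, without a stated version. No source used here says whether both organs were normalized together, so organs were compared only through changes from their own controls. Of 31099 probe sets, 57 were controls, and 20826 carried a single gene symbol, 436 more than 1 and 9780 no symbol here; symbols were updated through RefSeq by Entrez identifier for 20758. The array design and the number of arrays per group limit the precision.

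In R 4.3.3, limma 3.58.1 was fitted to the 14217 genes of each organ with 1 mean per dose group, and to all 49 arrays for the organ difference; trends used dose rank. P-values were adjusted by Benjamini-Hochberg over all genes and called under 0.05. The scripts were tested on simulated data. Alternatives were another probe set rule, brighter genes only, quantile normalization, median centring, robust variance trend, array weights, a replicate block, 2 groups alone, 1 array left out, adipocyte markers as a covariate and arrays high in them left out. The kidney slope on adipocyte markers, and the separation and unadjusted counts without the adipocyte-rich arrays, were added after seeing the data.

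The members and lists were chosen with earlier results of these data known. Values on every array at 1000 and 0 mg/kg are given for genes called in an organ, the 6 with the smallest p at 1000 mg/kg, and Ppara, Cpt1a, Cyp4a1, Ehhadh, Pdk4, Fgf21, Angptl4 and Pex19; in kidney Cd36, Cpt1b, Vnn1, Hadhb and Pex11a, and in liver Cyp4a3 and Fabp1, were named after their values were seen.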

Additional observations from a re-analysis of the deposited data

Results flagged for a closer look

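Of 163 groups of 4 or 5 arrays examined, 10 had 1 array far from the others, and chance alone does this in about 1 group in 20. All 10 were in kidney. At 1 mg/kg, Ppara was at 4.60 on replicate 1 (5.57 to 5.76 on the others), Decr1 at 10.75 on the same array (11.08 to 11.14) and Pex19 at 6.94 on replicate 4 (7.14 to 7.17). At 10 mg/kg, Fgf21 was at 3.22 on replicate 2 (3.88 to 4.00), Ehhadh at 10.11 on replicate 4 (10.18 to 10.19) and Ech1 at 10.36 on the same array (10.24 to 10.25). Pex19 was at 7.33 on replicate 3 at 100 mg/kg (7.08 to 7.12), and Cyp4a1 at 10.61 on control replicate 3 (10.14 to 10.23). The mean of 6 brown adipocyte markers was 1.60 above the control mean on 100 mg/kg replicate 1 (-0.06 to 0.04) and 0.56 above it on control replicate 4 (-0.19 to -0.09).

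The 1000 mg/kg response differed between organs for Decr2 (liver minus kidney 0.66) and for Acadm (-0.38), both in limma's test of the difference itself.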

How the results depend on the processing

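In liver at 500 mg/kg the 1 call, Pex19, became 0 under quantile normalization, median centring, the replicate block and a fit of the 2 groups alone. At 1000 mg/kg the 3 liver calls became 5 among brighter genes only, where Eci1 and Ehhadh were added, and 1, Decr2, under quantile normalization, median centring and the 2 groups alone; the liver trend count became 4 among brighter genes. The 6 kidney calls at 1000 mg/kg became 2 in the 2 groups alone and 2 without adipocyte-rich arrays, and the 7 in the trend became 2 without them, always Decr1 and Ehhadh; fewer arrays enter both fits. The organ difference kept 1 of 2, Acadm, under median centring. Leaving out 1 array gave 0 to 1 calls in liver at 500 mg/kg, 1 to 4 at 1000 mg/kg and 2 to 3 in the trend, 3 to 7 and 4 to 8 in kidney, and 2 to 2 between organs. The liver count at 1000 mg/kg was 1 when replicate 1 or 4 of the controls, or replicate 3 or 4 at 1000 mg/kg, was left out; the kidney count was 3 when 1000 mg/kg replicate 3 was, and the kidney trend 4 when that array, 1000 mg/kg replicate 4 or control replicate 2 was. The Hadha trend in kidney, 0.05 per step, was -0.01475 on the dimmest of its other probe sets and 0.02 on the other. Over the values of single genes, with no single array left out, 655 stayed the same, 32 lost their call, 11 gained one, 13 moved and 1, that Hadha trend, reversed. The same meant the same direction and side of the threshold. For values not called, or from another probe set, it also meant a shift under 1 SE. Some of these changed sign, as Cpt1a in liver at 500 mg/kg did, at -0.18 and, on its other probe set, 0.01. The cause of each change was not tested unless stated.

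Arrays of the same replicate number and different dose had correlations of their deviations of -0.22 to 0.30 in liver (median -0.0037, other numbers -0.0071) and -0.32 to 0.31 in kidney (median 0.08, other numbers -0.03). Liver and kidney arrays of the same dose and number had -0.02 to 0.23 (median 0.11, 13 of 24 over 0.1). Not every pair was over 0.1, so the numbers were not taken as pairs. True pairs could also fall under that limit, so the rule does not exclude pairing. Liver and kidney arrays of different numbers were not compared. By the mean correlation with each number at other doses, 3 of 24 liver and 10 of 23 kidney arrays correlated best with their own number. Between doses, any hint of pairing, from the data only, was in kidney, as the liver medians barely differed. With the replicate block, 2 liver genes were called at 1000 mg/kg, Ehhadh (adjusted p = 0.0393 in limma) and Decr2, while Cd36 (0.0636) and Pex19 (0.118) were not, and 5 kidney genes were called; it moved no other count by over 1.5 times beyond Pex19 at 500 mg/kg (adjusted p = 0.0902 in limma). The organ difference was called for Decr2 and Acadm with that block and with dose and number as a random block. The small number of arrays per group limits all of these counts.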
